A study of Rattus norvegicus with 2 samples.

Results

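Crypt cells with high Olfm4 transcript were examined in the epithelium of the proximal jejunum, the upper middle stretch of the small intestine, of 2 adult male Sprague Dawley rats. A cell was counted as a member when it had over 200 and under 5800 detected genes, over 5000 UMIs (unique molecular identifiers, each marking 1 captured transcript), at most 40% mitochondrial UMIs, at least 1 Epcam UMI, no Ptprc UMI, at least 5 Olfm4 UMIs per 10000 and at least 1 UMI of Lgr5, Ascl2, Axin2 or Slc12a2. This rule found 412 cells among 20285 barcodes, 403 in rat 1 and 9 in rat 2. Members made up 6.97% of the 5785 Epcam-positive, Ptprc-negative cells past the limits in rat 1, with an exact 95% interval of 6.32 to 7.65 by the Clopper-Pearson method. In rat 2 they made up 0.568% of 1584 (0.260 to 1.08), and these intervals cover counting error only. The 2 rats carried no treatment and no engineered allele according to the labels, were 6 to 8 weeks old and weighed 180 to 200 g, and had been fasted overnight. Epithelium was released with EDTA, made into single cells with dispase II, and sequenced as 1 droplet 3′ library per rat, so a library and a rat cannot be told apart.

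Stem cells at the base of the intestinal crypt divide throughout life and replace the whole lining. Wnt signals from neighbouring cells keep them in the stem state, and Wnt targets such as Axin2, Ascl2, Cd44 and Lgr5 are commonly used to recognise them. Notch receptors on these cells read ligands on adjacent secretory cells, which holds them and their progeny back from the secretory fate. Daughter cells go through several rounds of division in the crypt before they mature into absorptive enterocytes, goblet cells and other types. Olfm4 codes for a secreted glycoprotein that is abundant in crypt base cells of the small intestine.

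Members were set beside 2 other classes that passed the same limits and had under 1 Olfm4 UMI per 10000. Cycling Olfm4-low cells, with at least 3 UMIs per 10000 over Mki67, Top2a, Pcna, Mcm5 and Mcm6, numbered 762 in rat 1 and 40 in rat 2. Enterocytes, with fewer of those UMIs and at least 100 UMIs per 10000 over Alpi, Apoa1, Apoa4 and Fabp1, numbered 3212 and 1197. UMIs were summed per rat and class, and levels are given as CPM, UMIs scaled to the size of that sum in the usual way. The members summed to 6205704 UMIs in rat 1 and to 146233 in rat 2, where 1 UMI equals 6.84 CPM. A count of 0 therefore allowed a level of up to 0.483 CPM in rat 1 and 20.5 CPM in rat 2, so the values of rat 2 are coarse.

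The 2 libraries differed in yield and in how they had been counted. Of the barcodes, 49.8% in rat 1 and 27.0% in rat 2 passed the limits on genes, UMIs and mitochondrial share. Counting had used Cell Ranger 3.1.0 in the first rat and 5.0.1 in the second, by the headers of the files. The 2 libraries shared 28 barcode sequences, including those of 2 members, and no sequence was a member in both. Median UMIs per member were 12390 in rat 1 and 17088 in rat 2, against 14996 and 15786 in the cycling class and 12290 and 22069 in enterocytes. Median mitochondrial shares were 11.5% and 13.5% in members, 11.2% and 12.1% in the cycling class and 14.3% and 24.4% in enterocytes. With a mitochondrial limit of 20%, 273 of the 1197 enterocytes of rat 2 stayed.

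The Olfm4 level chose the members and is given as a description. Summed Olfm4 was 2260 CPM in rat 1 and 2619 CPM in rat 2, against 8.98 and 2.95 CPM in the cycling class and 4.14 and 0.190 CPM in enterocytes. Among the members of rat 1, Olfm4 ranged from 5.03 to 85.6 UMIs per 10000 with a median of 21.1. The 9 members of rat 2 ranged from 6.24 to 51.7 with a median of 13.8. The cells nearest the limit from below held 4.98 UMIs per 10000 in rat 1 and 4.81 in rat 2. In rat 1 90 cells lay from 2 to under 5 per 10000 and 74 from 5 to under 10, so the limit fell within a continuous range. Another 2 cells of rat 1 reached the Olfm4 limit and were left out for lack of a second marker.

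The other 4 genes of the rule differed widely in how often they were seen. Slc12a2, the basolateral sodium, potassium and chloride cotransporter of secreting crypt cells, had UMIs in every member, at 615 and 698 CPM in the sums. Axin2, a feedback inhibitor induced by Wnt signalling, stood at 97.7 and 123 CPM and had UMIs in 271 of the 403 members of rat 1 and 6 of the 9 of rat 2. Ascl2, a transcription factor of crypt base stem cells, stood at 78.2 and 68.4 CPM and had UMIs in 219 and 5 members. Lgr5, the R-spondin receptor that defines these stem cells in other studies, was sparse: 62 UMIs in 54 members of rat 1, or 10.0 CPM, and 0 UMIs in rat 2. After each cell was thinned to 5000 UMIs, 5.96% of members in rat 1 held an Lgr5 UMI (3.85 to 8.73), against 0% of enterocytes (up to 0.115). Enterocytes of rat 2 held one in 0.585%. In rat 2 0 of 9 members held one (up to 33.6%), so Lgr5 could not be assessed there. The name stem cell therefore rests on Olfm4, Slc12a2, Ascl2 and Axin2 in these files, and on Lgr5 only in rat 1.

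The 250 bases before the RefSeq start are shown for Olfm4 and Axin2, which the rule used, and for Cd44, a Wnt target outside the rule that is taken up further on. The sequences come from RefSeq annotation of the GRCr8 assembly, a later build than the Rnor6 genome to which the reads were counted, and are written 5′ to 3′ on the strand of the gene. Capitals mark the letters CTTTGA, or TCAAAG where they lie on the other strand, which is the core recognised by Tcf and Lef factors of the Wnt pathway. Olfm4 lies at chr15:61815981-61816230 on the plus strand, Axin2 at chr10:94398535-94398784 on the plus strand and Cd44 at chr3:109699425-109699674 on the minus strand.
Olfm4: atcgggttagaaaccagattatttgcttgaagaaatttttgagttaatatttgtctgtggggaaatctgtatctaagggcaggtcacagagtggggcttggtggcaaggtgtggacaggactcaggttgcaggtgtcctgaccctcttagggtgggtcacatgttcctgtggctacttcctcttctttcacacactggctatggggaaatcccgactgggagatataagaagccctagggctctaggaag
Axin2: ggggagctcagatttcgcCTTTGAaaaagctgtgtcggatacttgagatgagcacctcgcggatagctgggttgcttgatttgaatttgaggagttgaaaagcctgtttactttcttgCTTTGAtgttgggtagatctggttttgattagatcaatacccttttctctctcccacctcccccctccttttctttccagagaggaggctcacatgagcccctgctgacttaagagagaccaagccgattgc
Cd44: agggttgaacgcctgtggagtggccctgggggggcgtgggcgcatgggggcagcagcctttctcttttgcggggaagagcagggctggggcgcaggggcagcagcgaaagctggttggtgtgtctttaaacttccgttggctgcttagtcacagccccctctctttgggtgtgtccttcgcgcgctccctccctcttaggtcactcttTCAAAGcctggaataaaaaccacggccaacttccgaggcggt

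The motif CTTTGA was present on either strand in 13.9% of the 33469 RefSeq promoter windows of this length. It occurred at 2 places before Axin2, 1 before Cd44 and at none before Olfm4, Ascl2 or Notch1. TGGGAA or TTCCCA, the core read by the Notch effector Rbpj, was in 22.1% of the windows and in none of these 5. The letters of the 2 motifs do not overlap each other. These counts describe only the windows searched.

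Other markers of crypt stem cells that the rule had not used were abundant in the members (in the plot of levels by class). Smoc2, a secreted matricellular protein of the stem cell zone, stood at 166 and 198 CPM in the members of rats 1 and 2, against 77.9 and 82.6 in the cycling class and 2.93 and 1.94 in enterocytes. Aqp4, a water channel, stood at 103 and 95.7 CPM, against 15.9 and 10.3, and 0.732 and 0.0380. Cdca7, a Myc-responsive gene of dividing cells, stood at 137 and 178 CPM, against 33.5 and 41.3, and 0.617 and 0.0761. For these 3 genes both member sums lay above all 4 sums of the other classes. Msi1, an RNA-binding protein of stem and progenitor cells, stood at 28.0 and 34.2 CPM, against 2.57 and 14.7, and 0.229 and 0.304. Prom1, a membrane protein found on crypt progenitors, stood at 53.3 and 61.5 CPM, against 31.1 and 53.1, and 1.33 and 0.951. Genes linked with slowly dividing reserve cells were sparse or shared. Hopx, one such gene, was high in every class, at 622 and 568 CPM in members, 459 and 386 in the cycling class and 372 and 277 in enterocytes. Bmi1 had 10 UMIs in the members of rat 1 and 0 in rat 2, Tert 2 and 0, and Lrig1, an ErbB inhibitor, 27 and 0.

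**Figure D1:**
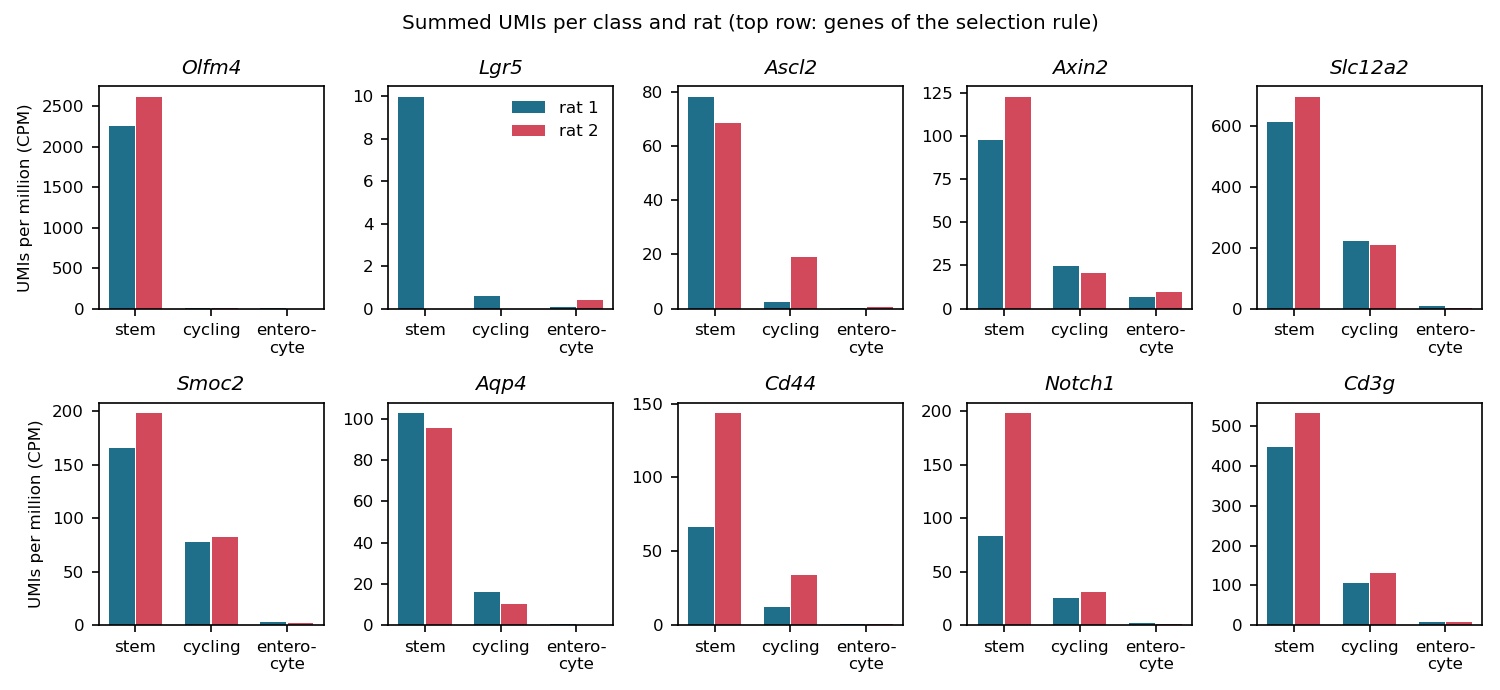
Level in CPM (y axis, 1 linear scale per panel) in the sums of stem cells, cycling Olfm4-low cells and enterocytes, with 1 bar per rat and no error bars since each bar is 1 sum. The top row holds the genes that chose the members, the bottom row genes that did not, and for each gene of the bottom row both stem bars stand above all bars of the other classes.

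Against enterocytes, most tested stem markers and most genes of division and ribosome production were higher in the members, as were some Wnt and Notch genes, while genes of absorption, most of MHC class II and most of the EGF and ErbB list were lower. The 6 sums were fitted together with the edgeR quasi-likelihood test, with TMM scaling, and p-values were adjusted by Benjamini-Hochberg over 10947 genes at a threshold of 0.05. With n = 2 rats per class, 2092 genes (19.1%) rose and 2141 (19.6%) fell in the members. With rat as a block 2805 (25.6%) rose and 2920 (26.7%) fell, and this larger set contained all 4233 calls made without it. The direction of these calls depends on the scaling. TMM gave enterocytes factors of 0.656 and 0.642 and the members 1.15 and 1.30. With total UMIs in place of TMM the median log2 fold change over all genes moved from -0.04 to 0.83, and 3514 genes (32.1%) rose while 1094 (9.99%) fell. Differences from enterocytes are therefore relative to the typical gene, and list counts with total UMIs are given beside those with TMM. Genes were tested in the cells that other genes had selected, and the gate genes themselves were not read as results.

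Of 17 tested genes in the list of other stem markers, 11 rose and 0 fell under either scaling, with a median log2 fold change of 3.96 against -0.04 over all genes. Smoc2 was higher by 5.29 ± 0.39 (SE) on the log2 scale (adjusted p = 0.0015). Aqp4 was higher by 7.01 ± 0.99 (adjusted p = 0.0022), Cdca7 by 7.77 ± 0.79 (adjusted p = 0.0015) and Msi1 by 5.91 ± 0.86 (adjusted p = 0.0023). Leaving out the genes of the rule, the largest rise among the named genes was that of Prelp, an extracellular matrix proteoglycan, at 8.10 ± 1.05 (adjusted p = 0.0018), from 55.8 and 144 CPM in members against 0.297 and 0 in enterocytes. Hopx did not pass, with a log2 fold change of -0.03 ± 0.39 under TMM.

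In the Wnt list 8 of 17 tested genes rose and 1 fell, or 9 and 0 with total UMIs. The shares over all genes were 19.1% and 19.6%, or 32.1% and 9.99% with total UMIs. Cd44, a hyaluronan receptor and Wnt target, stood at 66.7 and 144 CPM in members and at 0.526 and 0.456 in enterocytes, a log2 fold change of 6.69 ± 0.66 (adjusted p = 0.0015). Myc, the growth-promoting transcription factor downstream of Wnt, stood at 96.0 and 123 CPM against 1.07 and 0.342 and rose by 6.29 ± 0.60 (adjusted p = 0.0015). The receptors Ephb3 and Ephb2, which position cells along the crypt, rose by 5.41 ± 0.52 and 3.17 ± 0.54. Ccnd1, a G1 cyclin, rose by 3.38 ± 0.47 and Sox9, a crypt transcription factor, by 3.03 ± 0.98 (adjusted p = 0.042). Wls, which carries Wnt ligands to the cell surface, rose by 2.45 ± 0.44. Fzd7, a Wnt receptor of stem cells, passed as well (adjusted p = 0.014) on few counts, 17 and 3 UMIs in members against 2 and 0 in enterocytes. The co-receptor Lrp5 was the gene that fell, by 1.84 on the log2 scale, and it did not pass when total UMIs were used (-0.98, adjusted p = 0.12). Ctnnb1, Apc, Lrp6, Lgr4 and Tcf7l2, core parts of the pathway, did not pass.

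In the Notch list 5 of 17 tested genes rose and 0 fell, 8 rose with total UMIs in place of TMM, and 9 rose and 2 fell with the block. Of all genes 19.1% rose and 19.6% fell, 32.1% rose with total UMIs, and 25.6% rose and 26.7% fell with the block. The receptor Notch1 stood at 83.0 and 198 CPM in members and at 1.53 and 1.14 in enterocytes, a log2 fold change of 5.68 ± 0.52 (adjusted p = 0.0015). Notch2 passed too (adjusted p = 0.045) on rat 1 alone, with 4.67 CPM in members against 0.206, while in rat 2 members held 0 UMIs and enterocytes 0.380 CPM. Among targets, Nrarp rose by 3.13 ± 0.63 from levels of 37.1 and 75.2 CPM against 3.29 and 2.85, and Hes1, a repressor of the secretory fate, rose by 1.69 ± 0.51 (adjusted p = 0.034) from 98.6 and 253 CPM against 29.8 and 23.5. The ligand Jag1 rose by 1.40 ± 0.48 (adjusted p = 0.049). The ligands Dll1 and Dll4 did not pass, at 5.48 and 6.84 CPM and at 2.74 and 6.84 CPM in members. Atoh1, the factor that starts the secretory fate, was at 23.4 CPM in members of rat 1 and at 0 UMIs in rat 2, and did not pass.

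Most genes of division and growth rose, which the comparison class partly fixes since enterocytes were gated for few cycling UMIs. Leaving out the gate genes, 35 of 39 S phase genes and 42 of 48 G2/M genes rose and none fell, or 39 and 45 rose with total UMIs. Ribosome biogenesis, the making of ribosomes in the nucleolus, had 26 of 28 genes up, or 28 with total UMIs, among them Lyar by 4.36 ± 0.35 and Dkc1, a pseudouridine synthase, by 4.22 ± 0.42. Of the chromatin list 15 of 20 rose and 1 fell, or 17 and 1 with total UMIs. Dnmt1, which keeps DNA methylation through replication, rose by 4.76 ± 0.45 and its partner Uhrf1 by 5.91 ± 0.59. Paics and Ppat, enzymes of purine synthesis, rose by 6.46 ± 0.45 and 6.83 ± 0.66. In the G1 list 7 of 15 rose and 2 fell, or 9 and 2 with total UMIs. All genes gave 19.1% and 19.6%, or 32.1% and 9.99% with total UMIs. Cdk6 rose by 4.91 ± 0.61 and Cdk4 by 4.72 ± 0.63. The inhibitors Cdkn2b and Cdkn1a fell by 4.42 and 3.69 on the log2 scale.

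By cell cycle scoring on thinned cells, with 43 S and 51 G2/M genes, 363 of 403 members of rat 1 (90.1%, 86.7 to 92.8) and 8 of 9 of rat 2 (88.9%, 51.8 to 99.7) were assigned to S or G2/M. The shares were 93.4% and 30 of 40 cells in the cycling class and 5.95% and 8.10% in enterocytes. Both of these classes were gated on cycling genes, in opposite directions, so their shares were partly fixed in advance. The rule for members used no cycling gene. Without thinning they were 92.8% and 88.9% in the members. The cycling gate itself was met by 282 members of rat 1 (70.0%) and 8 of rat 2 (88.9%). The phase assignments take in free RNA, which was not measured separately for each class.

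**Figure D2:**
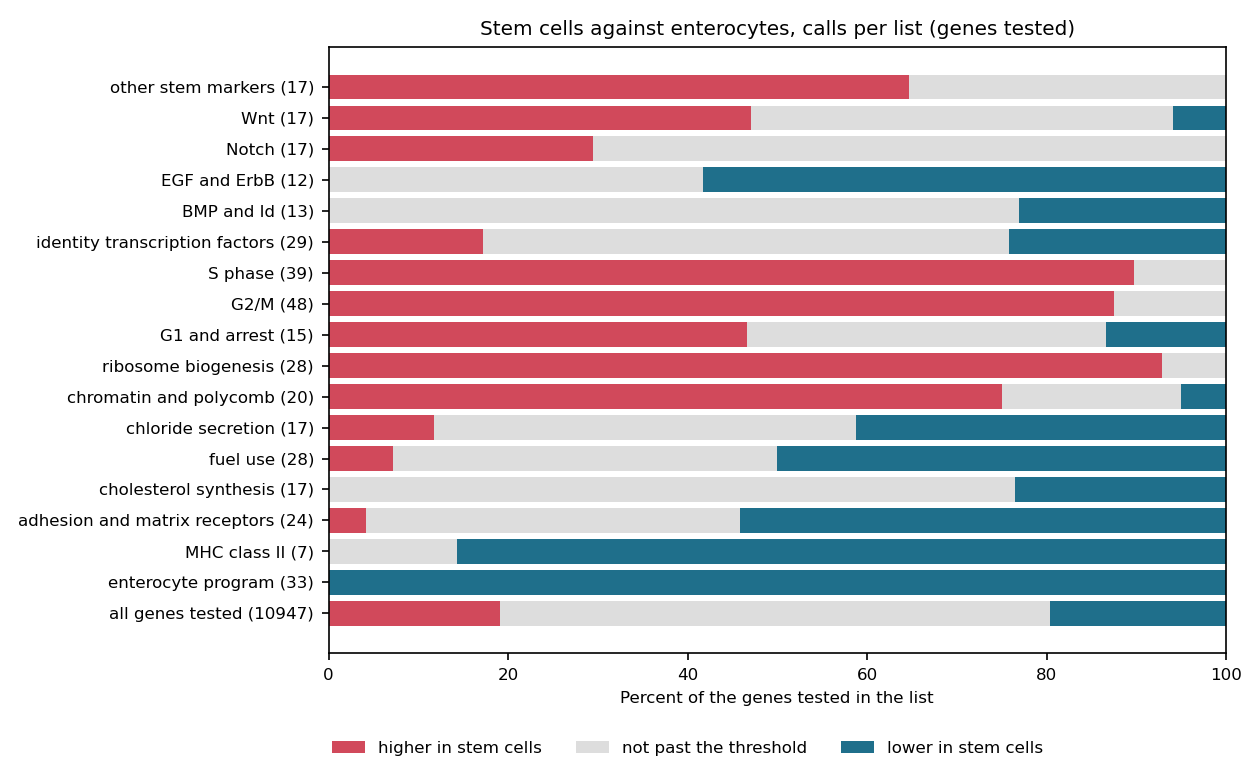
Percent of the tested genes of each list (x axis) that were higher, lower or not past the threshold in stem cells against enterocytes, in the edgeR fit with TMM scaling over 6 sums; the number of genes tested follows the name of each list. The bar of all 10947 genes shows 19.1% higher and 19.6% lower, whereas all 33 genes of the enterocyte program were lower and 26 of 28 ribosome biogenesis genes higher.

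The absorptive program was low in the members. All 33 tested genes of that list fell under either scaling, which the Fabp1, Alpi, Apoa1 and Apoa4 gate partly fixes, with a median log2 fold change of -5.13. Vil1, a microvillus actin bundler, stood at 163 and 116 CPM against 1502 and 1543, and Slc15a1, the peptide transporter, at 16.0 and 6.84 CPM against 302 and 339. Of 29 identity transcription factors 5 rose and 7 fell, shares near those of all genes (19.1% and 19.6%), and 9 rose and 6 fell with total UMIs. Creb3l3 fell by 5.53, Maf by 5.69 and Klf4, a factor of post-mitotic epithelium, by 3.29 on the log2 scale, whereas Ehf rose by 3.45 ± 0.44, Foxa3 by 3.44 ± 0.77 and Zfp36l2, an RNA-decay factor, by 1.95 ± 0.37. The intestinal identity factor Cdx2 did not pass, at 314 and 260 CPM in members and 177 and 132 in enterocytes.

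The EGF and ErbB list had 7 of 12 genes down and none up. Areg, an EGF receptor ligand, had 1 UMI in members of rat 1 and 0 in rat 2, against 11.5 and 70.4 CPM in enterocytes. Dusp6, a brake on ERK signalling, fell by 4.85 and Errfi1, an inhibitor of the EGF receptor, by 3.64 on the log2 scale. With total UMIs 3 of the 12 fell. The BMP list had no common direction: 3 of 13 fell and 0 rose, against 19.6% and 19.1% of all genes, 6 fell and 2 rose with the block, and 1 fell and 3 rose with total UMIs. Smad7 fell by 2.90 and Id1 by 2.03, though Id1 did not pass with total UMIs (-1.15, adjusted p = 0.061). Of the MHC class II genes, which present peptides to T cells, 6 of 7 fell, or 5 with total UMIs, with Cd74 at 76.1 and 6.84 CPM against 1126 and 577 (log2 fold change -4.90 ± 0.94, adjusted p = 0.0064).

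In fuel use, 14 of 28 genes fell and 2 rose, and with total UMIs 8 fell and 3 rose. Of all genes 19.6% fell and 19.1% rose, and with total UMIs 9.99% fell and 32.1% rose. Pck1, of gluconeogenesis, fell by 5.34 and Eno1, of glycolysis, by 3.03 on the log2 scale. Hk2, which traps glucose in the cell, rose by 3.28 ± 0.55 (adjusted p = 0.0038) and Idh2, a mitochondrial dehydrogenase, by 1.70 ± 0.42 (adjusted p = 0.016). In the adhesion list 13 of 24 fell and 1 rose, and with total UMIs 6 fell and 2 rose, against the same shares of all genes. The tight junction gene Cldn2 rose by 2.88 ± 0.42, from 82.2 and 95.7 CPM against 6.84 and 5.93, whereas Cldn4 fell by 5.07 and the cadherin Cdh17 by 3.83.

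In the list of chloride secretion, 2 of 17 genes rose and 7 fell, or 4 and 9 with the block, and 5 rose and 6 fell with total UMIs. Over all genes 19.1% rose and 19.6% fell, or 25.6% and 26.7% with the block, and 32.1% and 9.99% with total UMIs. The share of the list that rose was under that of all genes in the first fit, and near it with the block and with total UMIs. The share of the list that fell was above that of all genes each time. The 2 that rose code for potassium channel subunits that work together in the basolateral membrane, Kcnq1 by 3.57 ± 0.57 and Kcne3 by 4.09 ± 0.94. Kcne3 stood at 232 and 253 CPM in members against 13.8 and 1.33. Cftr, the apical chloride channel, stood at 67.2 and 75.2 CPM in members, 42.9 and 33.9 in the cycling class and 37.8 and 49.7 in enterocytes, and did not pass against either. Exchangers of the absorptive membrane fell, Slc26a6 by 5.08, Slc26a3 by 4.26 and Slc9a3 by 4.66 on the log2 scale. Gucy2c, the guanylin receptor, fell by 3.44.

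Some genes of enterocytes had no UMI in any member. Aqp8, another water channel, was at 0.961 and 125 CPM in enterocytes, at least 1.99-fold higher than the limit of 3 counts in members of rat 1 and at least 6.09-fold higher in rat 2. Catsperz was at 10.1 and 9.02 CPM, at least 20.8-fold higher in rat 1, with no bound in rat 2 because its level there lay under that limit. Nyap1, Plekho2, Ifit3 and Slc27a2 were likewise at least 9.46, 7.66, 3.78 and 2.55-fold higher in rat 1.

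Against cycling Olfm4-low cells, the question was what sets Olfm4-high cells apart from other dividing epithelium. The 2 classes also differed in make-up. In rat 2 only 14 of the 40 cycling cells stayed with secretory cells left out, and the goblet list stood at 28978 CPM in that class against 328 in members. In rat 1 70.0% of members met the cycling gate. No gene passed in either direction (0.00% and 0.00% of 10947). By the edgeR quasi-likelihood test 299 genes (2.73%) had an unadjusted p under 0.05. That is below the share of 0.05 that this limit gives where no gene differs. DESeq2 called 3 genes, Olfm4, Srd5a2 and Cd3g. The main fit, without a block, had called none. Rat as a block was an alternative to it, which pairs the sums of a rat since they come from the same animal. With the block 27 genes (0.247%) were higher and 5 (0.0457%) lower in members. The 27 include the rule genes Olfm4, Ascl2 and Axin2, which are no finding. Of the other calls, Defa6, Defal1, Defa24, Defa8, Defa9, RatNP-3b and Mmp7 are Paneth cell products, defensins and a protease.

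Paneth transcripts came from 4 members of rat 1. These 4 cells held 21602 of the 21868 Defa24 UMIs of that rat's members (98.8%) and 169 of the 172 Mmp7 UMIs. They held 76.6% of the UMIs of Lyz2, the rat lysozyme gene, and 26.1% of those of Itln1, an intelectin. Without cells of at least 20 Defa24 UMIs per 10000 the blocked fit called 8 of 10931 genes (0.0732%): Olfm4, Ascl2, Axin2, Cd3g, Pdlim3, Srd5a2 and Cd44 higher, and S100a11 lower. Defensin genes are near-identical to each other, so the division of UMIs among them is uncertain. Whether the 4 cells are Paneth cells, or hold 2 cells in 1 droplet, was not tested.

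A gene known from T cells was among the calls. Cd3g codes for the gamma chain of CD3, part of the T cell receptor complex. It stood at 447 CPM in members of rat 1 (2776 UMIs) and 533 CPM in rat 2 (78 UMIs), against 105 and 131 CPM in the cycling class and 6.59 and 7.68 CPM in enterocytes. Both member sums were the highest of the 6 and both enterocyte sums the lowest. Against the cycling class the log2 fold change was 2.10 ± 0.30 with the block (adjusted p = 0.0055, 0.0011 to 0.055 over 9 blocked fits, of which 8 passed), and against enterocytes it was 5.18 ± 0.36 (adjusted p = 0.0015). In thinned cells a Cd3g UMI was found in 84.9% of members of rat 1 (81.0 to 88.2) and 88.9% of rat 2 (51.8 to 99.7). The share was 35.8% and 37.5% in the cycling class and 2.83% and 4.09% in enterocytes.

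The other chains of the complex did not accompany it (in the plot of T cell receptor genes). Cd3e had 17 UMIs in members of rat 1 and 0 in rat 2, Cd3d 6 and 0, and Cd247 3 and 1. In barcodes with at least 2 Ptprc UMIs, the leukocyte marker that members had to lack, Cd3g was at 114 and 358 CPM, Cd3e at 98.9 and 426 CPM and Cd3d at 68.2 and 256 CPM. Cd3g was thus higher in members than in Ptprc-positive barcodes of the same rat, while Cd3e and Cd3d were at or near 0. Those barcodes were not selected as T cells. After thinning, 34.5% and 62.1% of them held a Cd3g UMI, and Apoa1 of enterocytes stood at 17171.5 and 8079 CPM. The levels therefore do not compare members with T cells. The leukocyte list without Cd3g, 15 genes, summed to 78.3 CPM in members of rat 1, against 114 in the cycling class and 109 in enterocytes. In rat 2 it summed to 1039 CPM, against 594 and 112, and 148 of its 152 UMIs lay in 1 member, which had 6 Epcam UMIs, 7 Olfm4 UMIs and 64 UMIs of the chemokine Ccl5. Without that cell the list stood at 28.7 CPM and Cd3g at 553 CPM. Cd3g neighbours Cd3d and Ube4a in the GRCr8 annotation. Ube4a stood at 47.4 and 61.5 CPM in members, 52.1 and 51.6 in the cycling class and 38.6 and 27.8 in enterocytes. Whether the reads at Cd3g belong to its known transcript cannot be seen in gene counts.

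**Figure D3:**
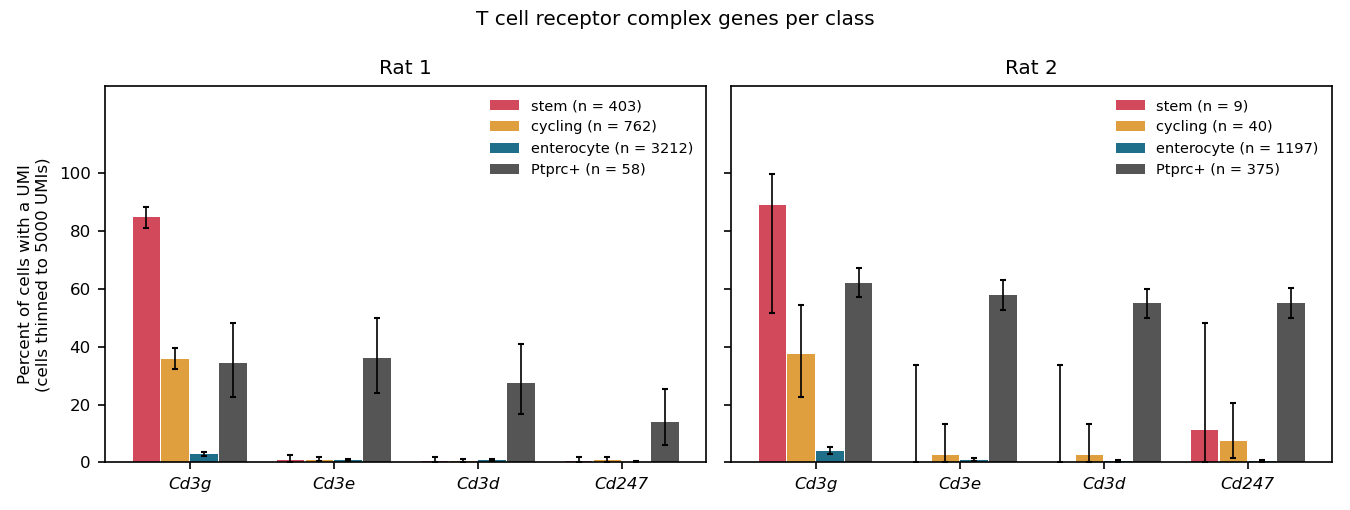
Percent of cells with at least 1 UMI of each gene (y axis) after thinning to 5000 UMIs per cell, in stem cells, cycling Olfm4-low cells, enterocytes and Ptprc-positive barcodes of each rat, with exact Clopper-Pearson 95% intervals that cover counting error only. Cd3g was seen in 84.9% and 88.9% of stem cells, whereas Cd3e, Cd3d and Cd247 were seen at 20% or more only in Ptprc-positive barcodes.

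Of the other genes called outside the rule, Cd44 is given next. It had UMIs in 230 of the 403 members of rat 1 and 7 of the 9 of rat 2. Its level was 11.9 and 33.9 CPM in the cycling class, and the log2 fold change with the block was 2.35 ± 0.40 (adjusted p = 0.025, past the threshold in 9 of 9 blocked fits). Pdlim3, a PDZ and LIM protein of the actin cytoskeleton, had 188 and 2 UMIs in members against 12 and 0 in the cycling class. These are 30.3 and 13.7 CPM against 0.905 and 0, and the member level of rat 2 lay under the limit of 20.5 CPM. The log2 fold change was 5.08 ± 0.74 (adjusted p = 0.0062, 9 of 9 fits). The 9 blocked fits draw on the same 2 rats and are not independent. Srd5a2, a steroid 5-alpha-reductase, had 71 and 9 UMIs in members against 2 and 0 in the cycling class, a ratio of 75.8 in rat 1 with a counting interval of 20.2 to 638 (adjusted p = 0.015). S100a11, a calcium-binding protein, was lower, at 78.6 and 27.4 CPM against 293 and 260, by -2.21 ± 0.36 on the log2 scale (adjusted p = 0.015, 8 of 9 fits). Reg3g, an antimicrobial lectin, was at 16.3 and 0 CPM against 78.5 and 379 (adjusted p = 0.033, 6 of 9 fits, up to 0.27).

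A few further genes passed with the block in some fits and not in others. Aqp4 differed from the cycling class by 2.92 ± 0.53 with the block (adjusted p = 0.035, 8 of 9 fits), Notch1 by 2.14 ± 0.39 (adjusted p = 0.036, 7 of 9), Ephb3 by 2.28 ± 0.45 (adjusted p = 0.044, 6 of 9) and Prelp by 3.09 ± 0.60 (adjusted p = 0.044, 8 of 9). Without the 4 cells of high Defa24, their adjusted p-values were 0.053, 0.055, 0.063 and 0.060, and that of Reg3g was 0.051. Cdca7 (2.10, adjusted p = 0.084) passed in 4 of 9 blocked fits, with 0.022 to 0.12, and Msi1 (2.73, adjusted p = 0.11) in 2 of 9, with 0.040 to 0.26. Smoc2, at 1.19 (adjusted p = 0.23), passed in none of the 9, nor did Myc or Hes1. Notch1 was also seen in 44.3% of thinned Ptprc-positive barcodes of rat 2, at 99.4 CPM.

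For lists, the sign in each rat was read with no test. Over all genes 23.0% were higher in members in both rats and 31.0% lower in both. Of the other stem markers 12 of 17 were higher in both rats and 0 lower. Of the Wnt genes 8 of 17 were higher and 3 lower, and of the Notch genes 4 and 5 of 17. Ribosome biogenesis had 20 of 28 higher and 1 lower, a median log2 fold change of 0.28.

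All 17 tested genes of cholesterol synthesis were lower in members than in the cycling class in both rats, with a median log2 fold change of -1.37 against -0.04 over all genes, and none passed. Sqle, which makes squalene epoxide, stood at 14.2 and 6.84 CPM against 37.6 and 92.9. Fdps, at 113 and 123 CPM against 218 and 428, and Idi1, at 49.1 and 27.4 against 104 and 202, showed the same order. These 3 were chosen after their values were seen. The median lay between -2.28 and -0.91 over all alternatives, all 17 below 0 in each, and at -1.07 with secretory cells left out. The adjusted p of these 3 genes with the block lay between 0.059 and 0.57. Against enterocytes the list was not uniformly low: 4 of 17 fell, among them Hmgcs1 and Sc5d, 2 with total UMIs and 8 with the block. The cycling class of rat 2 was rich in secretory transcripts, with 26 of its 40 cells over the secretory limits and a goblet list of 28978 CPM. The list was at 328 CPM in members there, and at 9315 and 4726 CPM in the cycling class and members of rat 1.

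**Figure D4:**
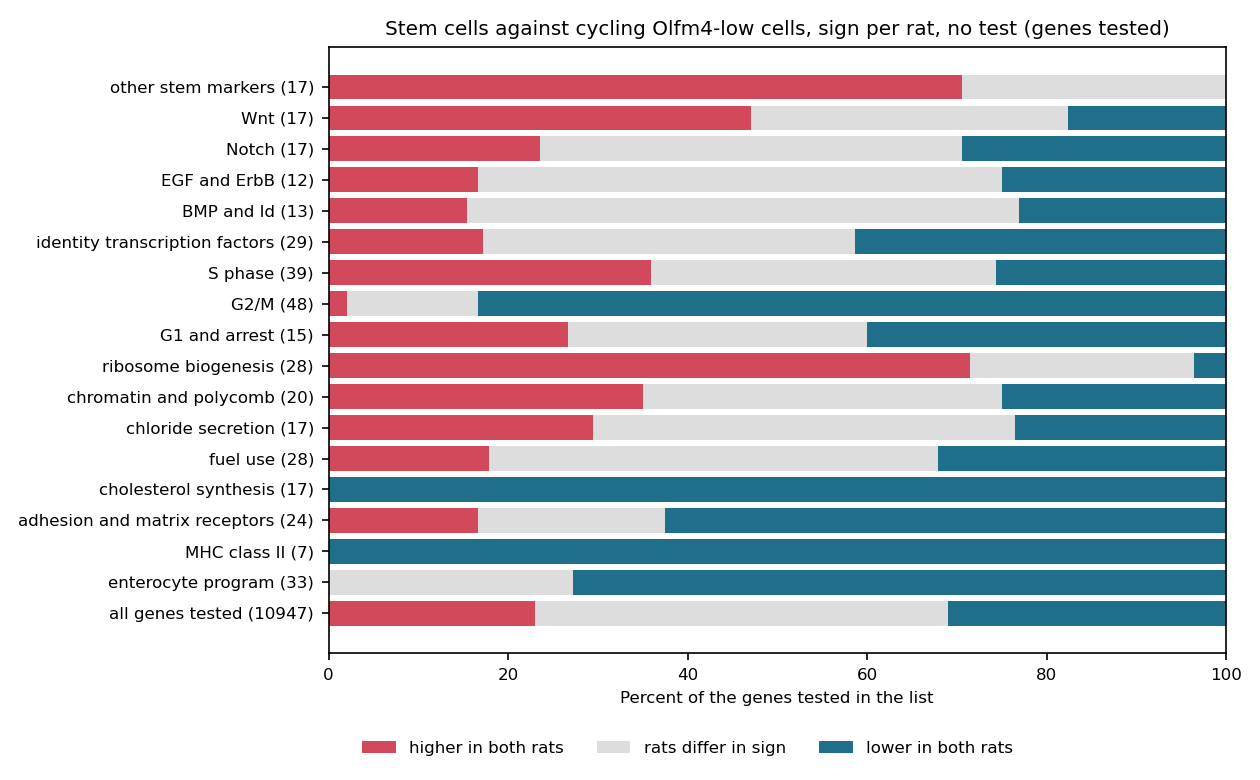
Percent of the tested genes of each list (x axis) whose log2 CPM was higher in stem cells than in cycling Olfm4-low cells in both rats, lower in both, or of unlike sign, with no test; the number of genes tested follows the name of each list. All 17 cholesterol synthesis genes and all 7 MHC class II genes were lower in both rats, against 31.0% of all genes.

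G2/M genes were lower in both rats for 40 of 48, with a median of -0.53, as against S phase genes with 14 higher and 10 lower of 39. This order depends on the gate of the comparison class: with a gate of at least 1 UMI per 10000 the G2/M median was 0.41, and with only the members inside the gate it was -0.37. The inhibitors Cdkn1a (9.83 and 6.84 CPM against 35.0 and 29.5) and Cdkn2b (7.25 and 0 against 33.3 and 11.8) were lower in members and did not pass. Ldha, lactate dehydrogenase, stood at 1125 and 1005 CPM against 3263 and 2031 and did not pass either. These genes and the next were also chosen after their values were seen. Cldn2 (82.2 and 95.7 CPM against 38.9 and 25.1) and Zfp36l2 (402 and 595 against 218 and 218) were higher in both rats and did not pass.

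Within the cycling gate of rat 1, several of these genes followed Olfm4 by degree (in the plot of levels by Olfm4 band). Cells were grouped as having 0, under 1, 1 to under 5, 5 to under 20 and 20 or more Olfm4 UMIs per 10000, with 655, 107, 96, 141 and 141 cells. The first 2 bands are the 762 cells of the cycling class of rat 1, and the last 2 are its 282 members in the gate. The ends therefore repeat the comparison from which Cd3g, Aqp4 and S100a11 were named, and only the 96 middle cells are new. Cd3g stood at 98.0, 140, 265, 375 and 527 CPM in that order. Aqp4 stood at 13.3, 30.1, 42.9, 74.3 and 130 CPM. Both were higher in every next band. S100a11 went the other way, at 304, 232, 170, 95.9 and 59.6 CPM. From the first band to the last, Fabp1 of enterocytes went from 4513 to 729 CPM and the goblet genes Tff3 and Zg16 from 3374 to 509 and from 1049 to 159 CPM, and their part in these differences was not tested. Ascl2, a gene of the rule, stood at 2.06, 3.35, 16.1, 59.2 and 108 CPM and is given as a description. Ephb2, at 23.6 in the first band and 35.5 in the last, and Hes1, at 79.0 and 91.0, varied less. The bands are cells of 1 library, so no test was made, and median UMIs per cell lay between 12590 and 16479.

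**Figure D5:**
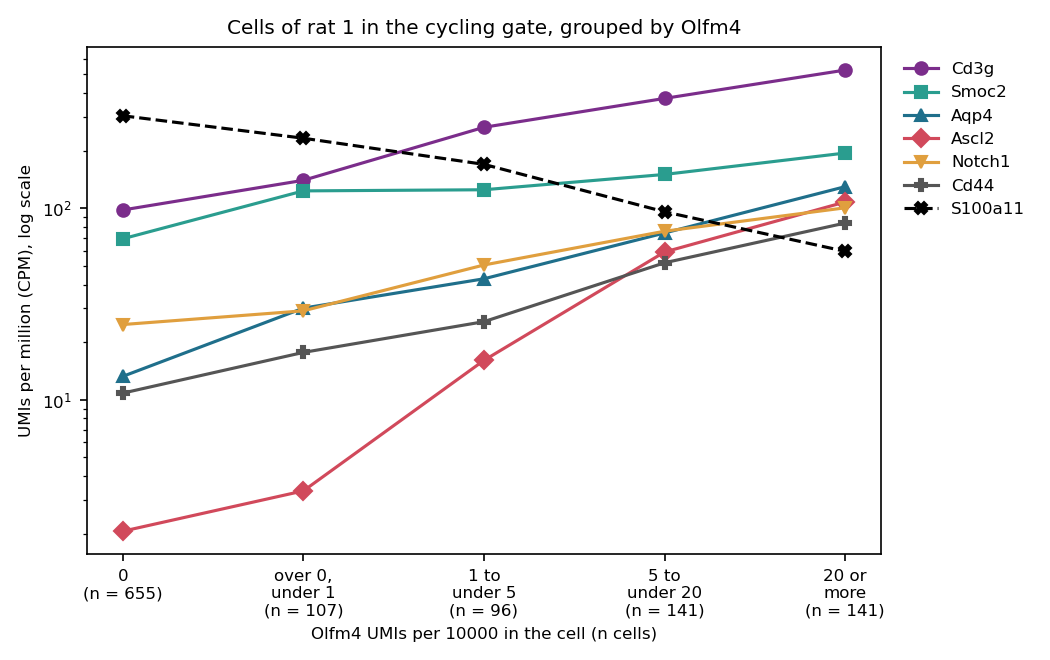
Level in CPM (log scale, y axis) of 7 genes in cells of rat 1 that passed the cycling gate, grouped by Olfm4 UMIs per 10000 (x axis, number of cells below each band), with 1 summed value per point and no replicate. Cd3g rose from 98.0 to 527 CPM and S100a11 fell from 304 to 59.6 CPM from the band without Olfm4 to the band of 20 or more.

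Members inside and outside the cycling gate had like levels of the markers in rat 1. Cd3g stood at 446 CPM in the 282 inside and 451 CPM in the 121 outside, Aqp4 at 100 and 111 CPM, Smoc2 at 171 and 151 CPM and Cd44 at 66.8 and 66.4 CPM. Fabp1, a gate gene of enterocytes, was at 1745 and 6715 CPM, with UMIs concentrated in some cells: the sum of the 4 gate genes reached 1338 UMIs per 10000 around a median of 13.0. In rat 2 the 9 members ranged from 3.11 to 10.7.

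The 9 members of rat 2 were not alike. In order of falling Olfm4 count they held 104, 93, 83, 41, 31, 11, 7, 7 and 6 Olfm4 UMIs. Cd3g UMIs in the same order were 13, 10, 16, 20, 7, 6, 4, 1 and 1, and Smoc2 UMIs were 7, 5, 3, 2, 3, 5, 1, 0 and 3. Epcam UMIs were 38, 47, 41, 50, 40, 38, 9, 6 and 9, so the 3 cells of least Olfm4 also held the least Epcam. These 3 also had the fewest UMIs in all, 8393, 7023 and 9619, against 16065 to 24507 in the other 6. With at least 10 Epcam UMIs required in all classes 6 of the 9 stayed, and the blocked fit against the cycling class called 49 genes.

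Markers of other cell types were sought in the members as a whole. Of the goblet list none of the 11 genes was at 0 in rat 1 and 5 were in rat 2, and 56 members of rat 1 (13.9%) held at least 20 Tff3, Agr2 and Clca1 UMIs per 10000, against 0 in rat 2. Of the enteroendocrine list 2 of 12 genes were at 0 in rat 1 and 10 in rat 2, with sums of 119 and 13.7 CPM. The cycling class held 19.8 and 586 CPM of that list and enterocytes 54.4 and 347 CPM. Members were thus the highest class in rat 1 and the lowest in rat 2. The tuft list stood at 21.3 and 41.0 CPM, with Trpm5 and Il25 at 0 in both rats. Best4 and Otop2, markers of CFTR high expressing cells, were at 0 UMIs in the members of both rats. Erythroid genes summed to 268 and 61.5 CPM, and the mesenchyme list to 2.74 and 6.84 CPM with Col1a1, Col1a2, Col3a1 and Dcn at 0. Endothelial Cdh5 and Kdr were at 0. The part of these transcripts in the differences above was not tested, except where a fit without the cells is given. A caller of doublets marked 12 members of rat 1 and none in rat 2, where it marked 2 of 2230 cells in all. The low count in rat 2 was not taken as absence of doublets, and the caller was not checked in either rat.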

How the data were processed

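Jejunal epithelium of 2 rats was profiled by droplet 3′ single-cell RNA sequencing, 1 library per rat. The deposited matrices hold whole-number UMI counts per gene and barcode, made by the authors with Cell Ranger (3.1.0 and 5.0.1 per the file headers) against the rn6 build, with no normalization. They list 32883 genes, of which 4255 share a symbol with another.

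Cells were classed with the limits given in the report, and raw counts were summed per rat and class. The 6 sums were tested with edgeR 4.0.16 (R 4.3.3; TMM, filterByExpr, glmQLFit and glmQLFTest, no block) over 10947 genes, with Benjamini-Hochberg adjustment at 0.05. The script was tested on simulated data. Adjusted p-values against enterocytes come from this edgeR model, and those of single genes against the cycling class from the same edgeR model with rat as a block, unless total UMIs or DESeq2 (1.42.0) are named. The block was an alternative to the main fit, which called no gene against the cycling class. The p-values of the main fit against enterocytes do not use the pairing by rat. Sums of the same rat come from the same animal, so the rat pairs them. Their deviations correlated at 0.182 (members and cycling), 0.132 (members and enterocytes) and 0.528 (cycling and enterocytes). Each class has 1 sum per rat, so p-values without the block measure the spread between 2 rats. With the block, they measure how far the differences between classes vary from 1 rat to the other. In both fits the spread is estimated over all 6 sums and shared across genes.

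Shares of cells were taken after thinning to 5000 UMIs, with exact Clopper-Pearson 95% intervals, and a count of 0 was given a limit of 3 counts. Cell cycle phases came from scanpy 1.11.5. Doublets were called with Scrublet but kept. Barcodes that failed the limits were left out.

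The members and all gene lists were chosen with earlier results of these data known. Named were the genes of the rule and gates, the leading genes by fold per direction among calls with the same direction in both rats, up to 4 genes per list by p, any gene of the Wnt, stem, Notch, chloride and transcription factor lists, and markers of other cell types. Members of small counts and genes so marked in the report were named after their values were seen. Immediate early and stress genes had 1 of 21 higher and 9 lower than in enterocytes, or 2 and 15 with the block. Alternatives covered scaling, filters, cell limits, gates, the rat block, DESeq2 and leaving out each sum.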

Additional observations from a re-analysis of the deposited data

Results flagged for a closer look

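Barcodes with over 1000 and at most 5000 UMIs stood outside all comparisons. In rat 1 43 of 1556 such barcodes (2.76%) met the rest of the rule for members, and in rat 2 0 of 583 did. The 43 held 104061 UMIs in all, with Smoc2 at 192 CPM against 15.3 CPM in barcodes of the same depth without Olfm4. Aqp4 stood at 144 against 3.31 CPM, Notch1 at 76.9 against 21.1 CPM and Cd3g at 202 against 126 CPM. These levels rest on 20, 15, 8 and 21 UMIs, and the difference was not tested.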

How the results depend on the processing

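Against cycling Olfm4-low cells, 0 genes were called without the replicate block and in each fit that left out 1 sum (0 to 0), 3 with DESeq2 and 152 with no filter on low counts. With the replicate block 32 were called. With the block and a further change the count was 32 with members in the cycling gate only, 52 without secretory cells, 8 without Defa24-high cells, 49 with at least 10 Epcam UMIs, 35 without called doublets, 37 with no upper limit on genes, 17 with a mitochondrial limit of 20% and 51 with total UMIs. The cause of these differences was not tested. Against enterocytes the 4233 calls became 950 to 3233 when 1 sum was left out, the lowest without the members of rat 1, and 76.3% of calls were higher with total UMIs against 49.4% with TMM. The block changed no call against enterocytes among those followed that had passed without it. Hopx, at -0.03 and not past the threshold, turned positive at 0.017 with at least 10 Olfm4 UMIs per 10000, 0.15 with the mitochondrial limit of 20% (0.17 with the block), 0.039 with the stricter enterocyte gate and 0.88 with total UMIs (0.88 with the block, adjusted p = 0.035, where it passed; its other adjusted p-values lay between 0.085 and 0.99). It ranged from -0.22 to 0.26 when 1 sum was left out. Without thinning, the share of members with a UMI in rat 1 was 13.4% for Lgr5, 54.3% for Ascl2, 83.4% for Smoc2, 71.7% for Aqp4, 62.5% for Notch1 and 96.5% for Cd3g, and in rat 2 88.9% for Notch1 and 100% for Cd3g. Of 63 genes followed through the alternatives against enterocytes, 28 lost their call without the members of rat 1 and 12 without those of rat 2. The 9 members of rat 2 set the depth limit of every comparison. Alternatives that drop a whole rat give values with no test.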
